A study of Mus musculus with 51 samples.

Results

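The genes described here encode the nuclear subunits of oxidative phosphorylation, the mitochondrial machinery that makes ATP from the electrons of NADH and succinate. They were chosen by symbol (Nduf, Sdh, Uqcr, Cox4 to Cox8 and Atp5 families, pseudogene symbols left out) and by a mean deposited value of at least 10 over all libraries. Of the 16099 genes in the table, 81 matched by symbol and 78 passed the level filter. These were 36 genes of complex I, 4 of complex II, 8 of complex III, 14 of complex IV and 16 of complex V. The other 3, Ndufs5 with a mean value of 7.69 and the striated-muscle isoforms Cox6a2 (1.14) and Cox8b (2.41), fell below it and were not tested. The lowest genes that passed were Cox7a1 with a mean of 177.8, Cox4i2 with 203.0 and Atp5s with 421.1.

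The series measured poly-A RNA of whole fetal kidneys from C57BL/6 mice, all labelled wild type, at 13 time points set 4 h apart. The first part ran from CT0 (embryonic day 18) to CT24 (day 19) in 27 libraries, and the second from CT28 to CT48 (day 20) in 24. Each time point had 4 libraries except CT20, which had 3. The labels call the libraries biological replicates but name no dam, litter or pooling, so the p-values below measure the spread between these libraries. The comparisons set a later against an earlier time point: CT24 (day 19) against CT0 (day 18), CT36 against CT32 (12 h and 8 h into day 19), and CT48 (day 20) against CT36.

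In the respiratory chain, complex I takes electrons from NADH and complex II from succinate, complex III passes them from ubiquinone to cytochrome c, and complex IV passes them to oxygen. Complexes I, III and IV move protons out of the matrix, and complex V, the ATP synthase, lets them back in to make ATP. Each complex pairs a few catalytic subunits with many small accessory or membrane subunits, and a handful of core subunits are encoded in mitochondrial DNA and are not among the genes here. In the kidney the proximal tubule and the thick ascending limb are rich in mitochondria, which power the reabsorption of salt and nutrients.

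The deposited values were normalised by the authors and rounded, so sequencing depth is unknown. Library sums ran only from 34226024 to 35711911, of which the 78 genes held between 1.59% and 1.97%. For each gene the mean over the second part had been made close to the mean over the first: the log2 difference of the means had an SD of 0.0325 over 12274 well-expressed genes. Levels before and after the break between CT24 and CT28 are therefore not comparable, each part had its own level in every fit, and no difference in level across the break is reported. The median SD between libraries of a time point was 0.0724 log2 units over the 78 genes in the first part and 0.109 in the second, against 0.0748 and 0.136 over all genes tested. These are bulk samples, in which fewer cells of a type and less RNA per cell cannot be told apart.

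Per kilobase of annotated transcript, the ATP synthase head subunits and a few small subunits led the 78 genes. The mean value per kilobase was 43147 for Atp5b, the catalytic beta subunit, 24754 for Atp5g3, 1 of 3 genes that encode the c subunit of the rotor, and 24246 for Atp5a1, the alpha subunit. Cox4i1, the general form of complex IV subunit 4, had 22807 and Cox8a had 21842 per kilobase. The median over the 78 genes was 6922 per kilobase. The lowest were Atp5s with 273.1, Cox4i2 with 278.0 and Cox7a1 with 404.9 per kilobase. Cox4i2 is the lung-type and oxygen-sensitive form of subunit 4, and Cox7a1 is the heart and skeletal muscle form of a complex IV subunit whose general form, Cox7a2, had 9028.

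Short motifs that the choice by symbol did not use were found in a minority of the promoters of these genes. RefSeq windows (GRCm38.p6, 250 bases before to 50 after each start, 300 in all) were found by symbol for 63 of the 78 genes, in 68 windows. Exact matches on either strand were counted for one spelling of each motif of 4 factors linked to mitochondrial genes, and none of the 4 spellings contains another. GCGCATGCG, a site of NRF1, was in 11.8% of the 68 windows, against 1.75% of all 32851 windows. CCGGAAG, an ETS site of the kind bound by GABP, was in 23.5% against 8.86%. AAGATGGCG, a YY1 site, was in 10.3% against 1.4%, and TCAAGGTCA, an ERR site, was in 2.94% against 0.423%. A match describes the letters only. Of the windows below, those of Atp5e, Uqcr11, Atp5j2 and Sdhd belong to genes that fell in the second part and that of Uqcrc1 to a gene that did not pass the test there. They are shown because both kinds carry the motifs. Capitals mark the ETS site of Atp5e at chr2:174464052-174464351 (minus strand), the ETS and NRF1 sites of Uqcr11 at chr10:80406772-80407071 (minus strand) and the YY1 site of Atp5j2 at chr5:145191492-145191791 (minus strand). They also mark the ETS and ERR sites of Sdhd at chr9:50603800-50604099 (minus strand) and the NRF1 site of Uqcrc1, 2 overlapping matches on opposite strands, at chr9:108936398-108936697 (plus strand).
Atp5e: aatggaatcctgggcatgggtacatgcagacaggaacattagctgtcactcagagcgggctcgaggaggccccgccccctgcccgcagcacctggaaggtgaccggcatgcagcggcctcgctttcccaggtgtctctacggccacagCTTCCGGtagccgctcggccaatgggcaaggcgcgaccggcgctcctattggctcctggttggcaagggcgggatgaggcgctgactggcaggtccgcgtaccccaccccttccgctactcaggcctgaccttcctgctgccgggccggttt
Uqcr11: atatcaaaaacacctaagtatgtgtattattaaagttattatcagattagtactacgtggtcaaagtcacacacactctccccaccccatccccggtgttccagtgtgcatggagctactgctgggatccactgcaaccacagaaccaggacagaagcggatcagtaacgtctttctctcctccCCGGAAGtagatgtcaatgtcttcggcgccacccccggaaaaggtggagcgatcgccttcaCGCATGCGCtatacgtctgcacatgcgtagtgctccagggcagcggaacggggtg
Atp5j2: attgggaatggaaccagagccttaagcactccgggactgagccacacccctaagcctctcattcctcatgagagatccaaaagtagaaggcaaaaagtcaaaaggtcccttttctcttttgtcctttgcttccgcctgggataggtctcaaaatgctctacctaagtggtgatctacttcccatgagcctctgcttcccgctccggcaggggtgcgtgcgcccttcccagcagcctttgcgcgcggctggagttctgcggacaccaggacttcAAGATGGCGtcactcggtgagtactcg
Sdhd: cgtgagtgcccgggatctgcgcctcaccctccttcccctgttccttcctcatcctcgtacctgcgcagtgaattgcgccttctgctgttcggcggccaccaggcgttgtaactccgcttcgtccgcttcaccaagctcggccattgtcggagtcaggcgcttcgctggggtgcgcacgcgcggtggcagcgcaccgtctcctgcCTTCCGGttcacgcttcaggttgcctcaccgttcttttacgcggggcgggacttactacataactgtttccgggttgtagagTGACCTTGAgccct
Uqcrc1: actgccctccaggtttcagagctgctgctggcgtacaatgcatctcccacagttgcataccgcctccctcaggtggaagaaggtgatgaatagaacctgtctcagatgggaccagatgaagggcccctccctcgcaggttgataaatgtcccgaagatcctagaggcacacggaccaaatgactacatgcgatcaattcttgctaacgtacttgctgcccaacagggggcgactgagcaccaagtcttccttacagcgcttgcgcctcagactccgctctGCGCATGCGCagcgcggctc

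Over the first day, from embryonic day 18 to 19, most subunits did not pass the test. At CT24, 9 of the 78 genes were higher than at CT0 and 0 were lower. Among all 14426 genes tested, 14.3% were called higher and 12.2% lower (limma, Benjamini-Hochberg adjusted p under 0.05). In this fit the share of subunits called higher was not above that of all genes. The median log2 difference was 0.048 over the 78 genes and 0.001 over all genes. The 9 genes were Ndufv1, Ndufv3, Ndufa10 and Ndufa8 of complex I, Sdha of complex II, Uqcrfs1 of complex III, Cox6a1 and Cox7a1 of complex IV and Atp5b of complex V.

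Ndufv1, the flavoprotein that takes the electrons from NADH, had values of 6346, 6425, 6465 and 6475 at CT24, against 5633, 5637, 5641 and 5928 at CT0. Every CT24 library was above every CT0 library, and the log2 difference was 0.17 ± 0.04 (SE, adjusted p = 0.00102 by limma), or 12.6% more. Sdha, the flavoprotein that oxidises succinate, had 16726 to 17209 at CT24 and 15410 to 16231 at CT0, again with no overlap, and a log2 difference of 0.11 ± 0.03 (adjusted p = 0.00412 by limma). Cox6a1, the general form of a complex IV subunit, differed by 0.14 ± 0.04 (adjusted p = 0.00502 by limma). Ndufv1 and Cox6a1 passed in 17 of 17 alternative analyses and Sdha in 16.

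The largest of the 9 differences was that of Cox7a1, the muscle form, with 178 to 202 at CT24 and 143 to 163 at CT0. Its log2 difference was 0.32 ± 0.10 (adjusted p = 0.016 by limma). Of 9 skeletal muscle markers tested, 0 were higher and 1 was lower at CT24, and their summed value was 373 to 430 at CT24, against 417 to 1223 at CT0. Uqcrfs1, the Rieske iron-sulfur protein of complex III, rose by 0.09 ± 0.03 and Atp5b by 0.09 ± 0.03 (adjusted p = 0.0455 and 0.0448 by limma), both close to the threshold. The count of 9 was 4 or 5 when CT24 replicate 2, 3 or 4 or CT0 replicate 2, 3 or 4 was left out, and 4 after quantile scaling. It was 13 with replicate numbers as blocks, where 2244 of all genes were higher and 2060 lower. With the trend of the values on transcript length removed, as described below, it was 19, where 2111 of all genes were higher and 1848 lower. That alternative was chosen after seeing the data.

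Along the line fitted through all 7 time points of the first part 10 genes rose and 0 fell, against 12.9% rising and 10% falling among all genes, and 7 of the 10 were among the 9 called at CT24. In this fit the share rising was close to that of all genes. Sdha had the smallest p, with a slope of 0.13 ± 0.02 log2 units per 24 h (adjusted p = 0.000252 by limma). Its mean values were 15780, 16190, 16410, 16680, 17130, 17360 and 17030 from CT0 to CT24. Ndufv1 rose by 0.15 ± 0.03 per 24 h (adjusted p = 0.00143 by limma), and Atp5a1 rose by 0.10 ± 0.03 (adjusted p = 0.0156 by limma). The others included Ndufa10, Uqcrq, Uqcrfs1, Cox7a1, Cox6a1 and Atp5b. When the mean of each time point was the unit of the fit, 0 genes passed. Without replicate 2, 3 genes rose, without replicate 3, 2 rose, and without replicate 4, 6 rose and 2 fell, 1 of them Ndufa4 at -0.10 (adjusted p = 0.0496 by limma). The median slope without replicate 4 was 0.006, against 0.035 with all libraries.

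**Figure D1:**
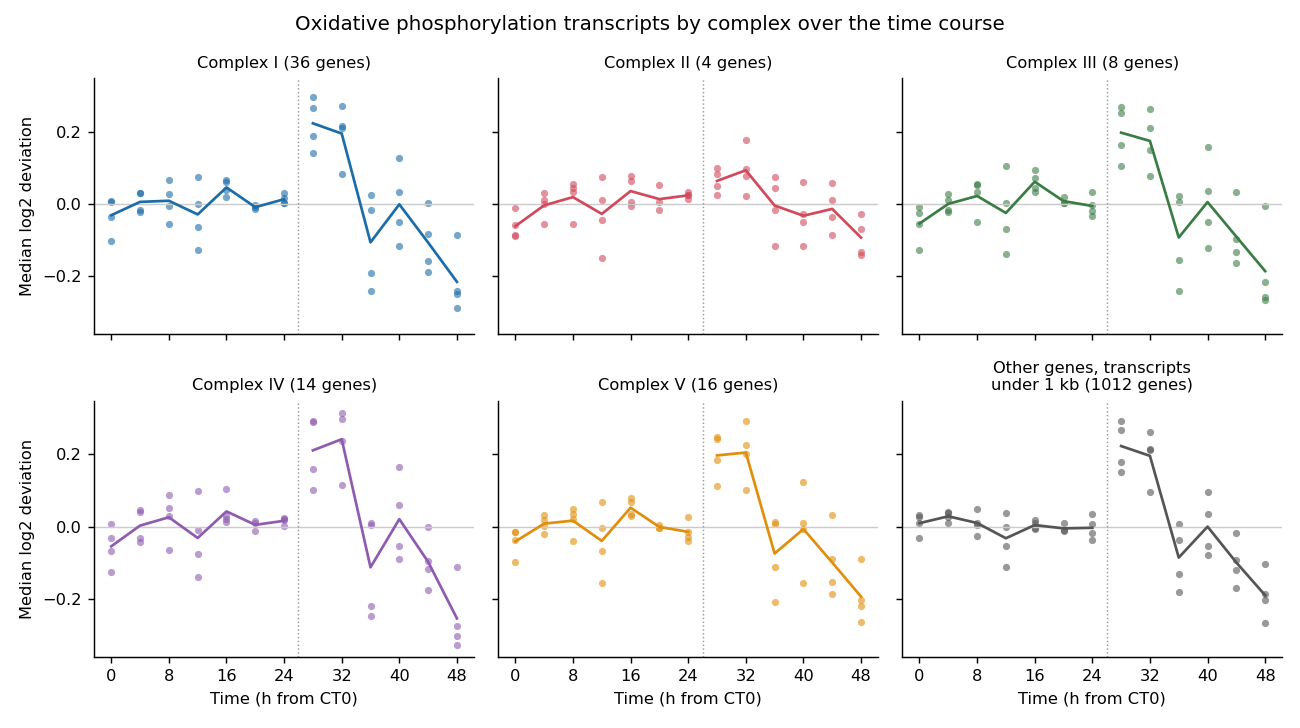
Median log2 deviation of each complex's genes from their own mean in that part of the series, by time in h, one point per library and lines through the time-point means. The dotted line is the break across which levels are not comparable. All 5 complexes were high at CT28 and CT32 and lower at CT48, complex II least, and other genes with transcripts under 1 kb (last panel) followed the same course.

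Inside the second part most subunits fell within 4 h, between CT32 and CT36. At CT36, 58 of the 78 genes were lower than at CT32 and 3 were higher, against 19.1% lower and 15.7% higher among all genes tested. The median log2 difference was -0.281 over the 78 genes, or 17.7% less, and -0.015 over all genes. With each library scaled to a common median the counts were 54 lower and 4 higher, while among all genes 2293 were lower and 2883 higher, against 2760 and 2263 as deposited. The fall was seen in 29 of 36 genes of complex I, 2 of 4 of complex II, 6 of 8 of complex III, 11 of 14 of complex IV and 10 of 16 of complex V. The medians were -0.295, -0.115, -0.272, -0.358 and -0.269 for complexes I to V in that order. The CT36 libraries were not alike: the median deviation of the 78 genes from their mean in this part was -0.236 in replicate 2, -0.157 in replicate 3, 0.005 in replicate 1 and 0.014 in replicate 4, while the CT32 libraries lay between 0.086 and 0.274. Without CT36 replicate 2 the counts were 46 lower and 3 higher, and without CT36 replicate 3, whose ID has another prefix than the rest of this part, they were 53 and 2.

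**Figure D2:**
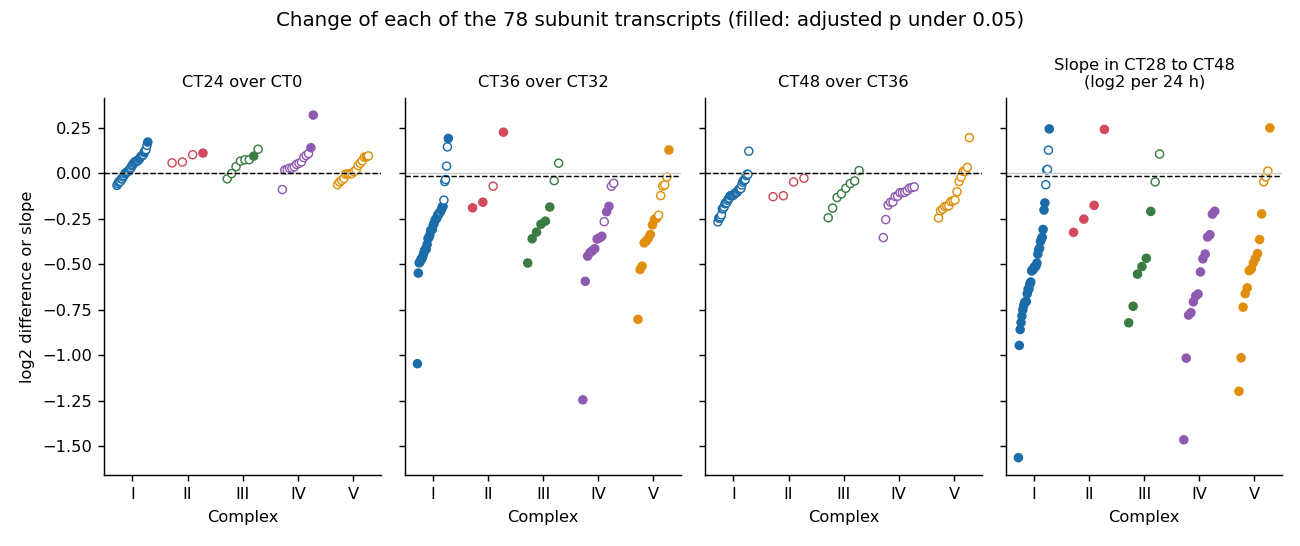
Difference (log2) of each of the 78 genes at CT24 over CT0, CT36 over CT32 and CT48 over CT36, and slope per 24 h in the second part, by complex. Filled points passed an adjusted p of 0.05, the dashed line is the median of all genes tested, and the 61 filled points at CT36 over CT32 include only 3 above 0.

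In complex I most accessory subunits fell, while the nuclear subunits of the electron-carrying core were divided. Of the 7 core subunits encoded in the nucleus, 3 were lower and 1 was higher at CT36, with a median log2 difference of -0.05. Of 27 accessory subunits, 24 were lower and 0 were higher, with a median of -0.31. Ndufa7, an accessory subunit, had values of 2715, 2914, 3261 and 3403 at CT36, against 3935, 4580, 4591 and 4854 at CT32, with no overlap. Its log2 difference was -0.55 ± 0.08 (adjusted p = 4.64e-06 by limma). Ndufs4, an accessory subunit that joins late in assembly, fell by 0.49 ± 0.08 (adjusted p = 3.47e-05 by limma). Ndufv1 was higher. It had 6285, 6336, 6438 and 6613 at CT36 and 5419, 5562, 5726 and 5781 at CT32, a log2 difference of 0.19 ± 0.05 (adjusted p = 0.0022 by limma). Ndufs1, the largest core subunit, differed by 0.14 ± 0.06 and did not pass (adjusted p = 0.0547 by limma). After the trend of the values on transcript length was subtracted, as described below, not all accessory subunits stayed lower. Ndufa1, Ndufb5 and Ndufb7 were then at 0.01, -0.03 and -0.01 and did not pass. Ndufa3 and Ndufa6 were called higher at 0.19 and 0.17, while Ndufa7 and Ndufs4 were still called lower.

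In complex II the succinate-oxidising subunit rose and both membrane anchor subunits fell. Sdha had 17712, 18028, 18443 and 18956 at CT36 and 14555, 15439, 15771 and 16865 at CT32, with no overlap and a log2 difference of 0.23 ± 0.05 (adjusted p = 0.00214 by limma). Sdhb, the iron-sulfur subunit, had 8050 ± 540 at CT36 and 8450 ± 463 at CT32 (SD, n = 4 each), and its difference of -0.07 ± 0.05 did not pass. The anchor subunits Sdhc and Sdhd fell by 0.16 ± 0.05 and 0.19 ± 0.07 (adjusted p = 0.0127 and 0.0239 by limma). Sdhd passed in 10 of 17 alternative analyses, and it did not pass without CT36 replicate 2 or 3 or CT32 replicate 1. Without CT36 replicate 2 the call for Sdhc was lost as well. With the length trend removed, Sdhc at -0.10 and Sdhd at -0.03 did not pass, while Sdha still passed at 0.21.

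In complex III 6 genes fell, and the Rieske protein and 1 of the core proteins did not pass the test. Uqcrh, the hinge protein beside cytochrome c1, had 6970, 7622, 9709 and 10505 at CT36, against 10826, 12056, 12361 and 13178 at CT32. The 2 groups did not overlap, and the log2 difference was -0.49 ± 0.11 (adjusted p = 0.00196 by limma). Uqcr10 and Uqcr11, both small membrane subunits, fell by 0.36 ± 0.08 and 0.32 ± 0.09. Uqcrc2, a core protein, fell by 0.19 ± 0.05 (adjusted p = 0.00611 by limma). Its partner Uqcrc1 had 13010 ± 263 at CT36 and 12530 ± 580 at CT32 (SD, n = 4 each), and Uqcrfs1 had 9205 ± 257 and 9469 ± 379. Neither passed. With the length trend removed, Uqcrh, Uqcr10, Uqcr11 and Uqcrc2 were at -0.10, 0.06, 0.09 and -0.12 and did not pass, while Uqcrc1 passed at 0.15.

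In complex V 10 genes fell and the alpha subunit of the catalytic head rose. Atp5e, the epsilon subunit of the central stalk, fell most of all 16 genes. It had 3239, 3362, 4361 and 4757 at CT36, against 5791, 6527, 7103 and 7784 at CT32, with no overlap and a log2 difference of -0.80 ± 0.13 (adjusted p = 5.95e-05 by limma). Atp5a1 rose to 63489 to 67153 at CT36, against 56625 to 60681 at CT32, a log2 difference of 0.13 ± 0.04 (adjusted p = 0.0251 by limma). Atp5a1, Ndufv1, Ndufs1 and Atp5b were named for this comparison after their values were seen. Atp5b, the partner of Atp5a1 in the head, had 83070 ± 1800 at CT36 and 84300 ± 3270 at CT32 (SD, n = 4 each) and did not pass. Of the 8 other ATP synthase genes, outside the F1 and c subunits, 7 fell, among them Atp5j2, the f subunit, by 0.51 ± 0.10 (adjusted p = 0.000255 by limma). The 3 genes of the c subunit, which encode the same mature protein, gave unequal values: Atp5g2 fell by 0.53 ± 0.07 (adjusted p = 2.83e-06 by limma), Atp5g1 had -0.12 ± 0.06 and Atp5g3 had -0.06 ± 0.05, and neither of these passed. With the length trend removed, Atp5e at -0.38, Atp5j2 at -0.23 and Atp5g2 at -0.19 were still called lower. Atp5a1 at 0.14 and Atp5g3 at 0.23 were then called higher. No other gene of complex V passed, among them Atp5f1 at -0.15, Atp5o at -0.03 and Atp5k at 0.12.

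**Figure D3:**
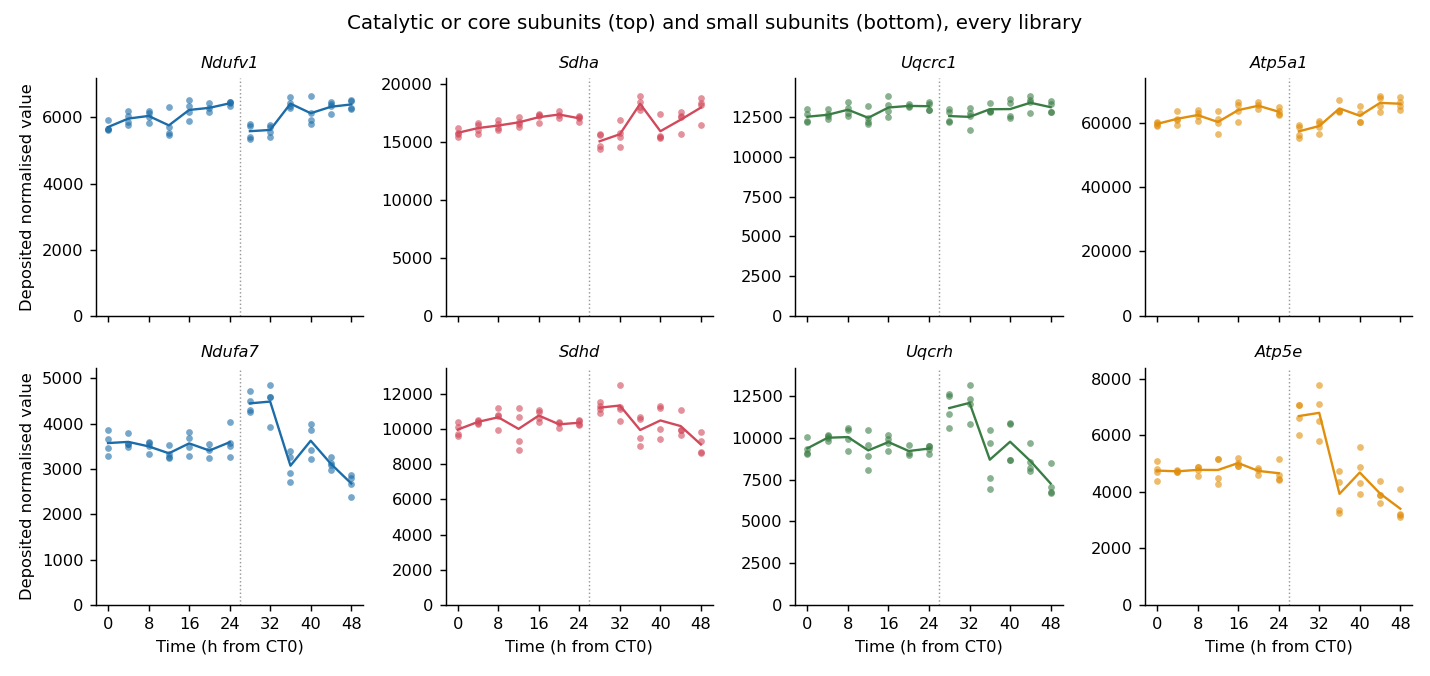
Deposited normalised value of 8 subunits by time in h, one point per library, with lines through the time-point means inside each part. Ndufv1, Sdha and Atp5a1 were higher at CT36 than at CT32, Uqcrc1 did not pass, and Ndufa7, Sdhd, Uqcrh and Atp5e were lower.

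The 2 deepest falls at CT36 were those of paralogues that mouse and human cells raise when oxygen is low. Cox4i2, the oxygen-sensitive form of subunit 4, had 131, 131, 165 and 167 at CT36, against 295, 325, 367 and 430 at CT32. That is a log2 difference of -1.24 ± 0.17 (adjusted p = 3.2e-06 by limma), or 57.8% less. Ndufa4l2, a paralogue of Ndufa4 that is a known target of hypoxia-inducible factor 1, had 752, 761, 791 and 854 at CT36, against 1379, 1691, 1702 and 1774 at CT32. Its log2 difference was -1.05 ± 0.09 (adjusted p = 1.24e-08 by limma), or 51.6% less. Neither pair of groups overlapped, and both calls held in 17 of 17 alternative analyses. The general forms were lower too in the values as deposited. Cox4i1 had 14075, 14528, 17159 and 17200 at CT36 and 18728, 19452, 20566 and 21026 at CT32, a log2 difference of -0.35 ± 0.07 (adjusted p = 0.000353 by limma). Ndufa4, a subunit first placed in complex I and now assigned to complex IV, fell by 0.49 ± 0.11 (adjusted p = 0.00118 by limma). With the length trend removed, Cox4i1 at -0.06 and Ndufa4 at -0.09 did not pass. Cox4i2 and Ndufa4l2 were then still called lower, at -0.96 and -0.82. The difference within each pair was not tested.

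**Figure D4:**
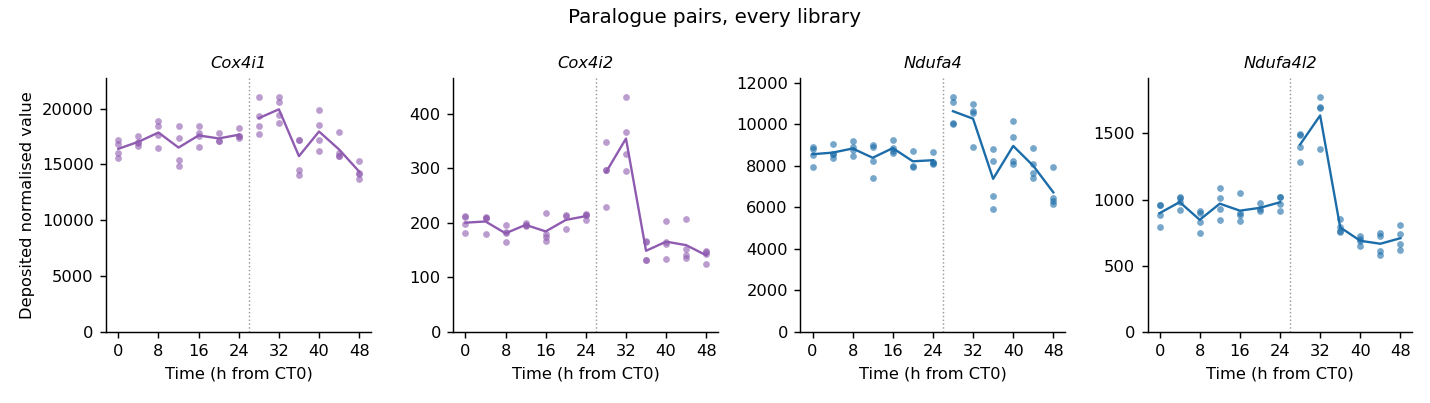
Deposited normalised value of Cox4i1, Cox4i2, Ndufa4 and Ndufa4l2 by time in h, one point per library, with lines through the time-point means inside each part. Cox4i2 and Ndufa4l2 were lower at CT36 than at CT32 and had means of 165.2 and 688.2 at CT40 and 140.2 and 707.8 at CT48, while Cox4i1 and Ndufa4 had means of 17950 and 8956 at CT40 and 14360 and 6720 at CT48.

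Among the other isoforms of complex IV at CT36, Cox6b2, the testis form, fell by 0.59 ± 0.12 (adjusted p = 0.000457 by limma) and the general Cox6b1 by 0.36 ± 0.06 (adjusted p = 9.23e-05 by limma). Cox7a2, the general form, fell by 0.45 ± 0.09 (adjusted p = 0.000409 by limma) and Cox7a2l, a supercomplex factor, by 0.35 ± 0.05 (adjusted p = 1.38e-05 by limma). Cox7b fell by 0.44 ± 0.13 (adjusted p = 0.0148 by limma), a call that was lost without CT36 replicate 2 or 3. Cox8a fell by 0.21 ± 0.05 (adjusted p = 0.00165 by limma). The muscle form Cox7a1 had 183 ± 39.5 at CT36 and 219.2 ± 39.8 at CT32 (SD, n = 4 each) and did not pass, nor did Cox6a1 with -0.07 ± 0.05. With the length trend removed, Cox7a2 at -0.14 and Cox7a2l at -0.17 were still called lower. Cox8a at 0.15 and Cox6a1 at 0.28 were then called higher. Cox6b2, Cox6b1, Cox7b and Cox7a1, at -0.18, 0.03, -0.22 and 0.15, did not pass.

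The values at CT36 ran with the size of the product and of the transcript. Among the 52 genes with transcripts under 1 kb, 45 were lower and 0 were higher at CT36, with a median log2 difference of -0.35. Among the 26 of 1 kb or more, 13 were lower and 3 were higher, with a median of -0.17. Across the 78 genes the difference ran with the length of the longest annotated protein at a Spearman rho of 0.64 and with transcript length at 0.51, as descriptions over genes that share the same 8 libraries. Short transcripts of other genes were lower as well. Of 1012 other genes under 1 kb, 463 were lower and 43 were higher at CT36, with a median of -0.28, while the median was -0.04 over those of 1 to 4 kb and 0.08 over those above 4 kb. The median deviation of those 1012 genes from their mean in this part was 0.22 at CT28, 0.20 at CT32, -0.09 at CT36, 0.00 at CT40, -0.10 at CT44 and -0.19 at CT48 (mean of 4 libraries each). For the 78 genes it was 0.21, 0.19, -0.09, 0.00, -0.09 and -0.21 at the same times.

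The comparison was repeated after the trend of the values on transcript length, read in each library from genes outside the 78, had been subtracted. At CT36 14 genes were then lower and 13 were higher than at CT32, and the median log2 difference was -0.03. Among all genes 2189 were then lower and 2261 higher, with a median of 0.004. Cox4i2 and Ndufa4l2 were still the lowest, at -0.96 ± 0.17 and -0.82 ± 0.10. Atp5e was at -0.38 ± 0.06, Ndufs4 at -0.40 ± 0.07 and Ndufa7 at -0.18 ± 0.05, all past the threshold. Ndufv1, Sdha and Atp5a1 were higher with values of 0.30 ± 0.05, 0.21 ± 0.05 and 0.14 ± 0.04, and Ndufs1 passed at 0.15 ± 0.06. Cox6a1 and Atp5g3 turned from -0.07 and -0.06 to 0.28 ± 0.05 and 0.23 ± 0.05. What part transcript length has in the fall was not tested beyond this.

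**Figure D5:**
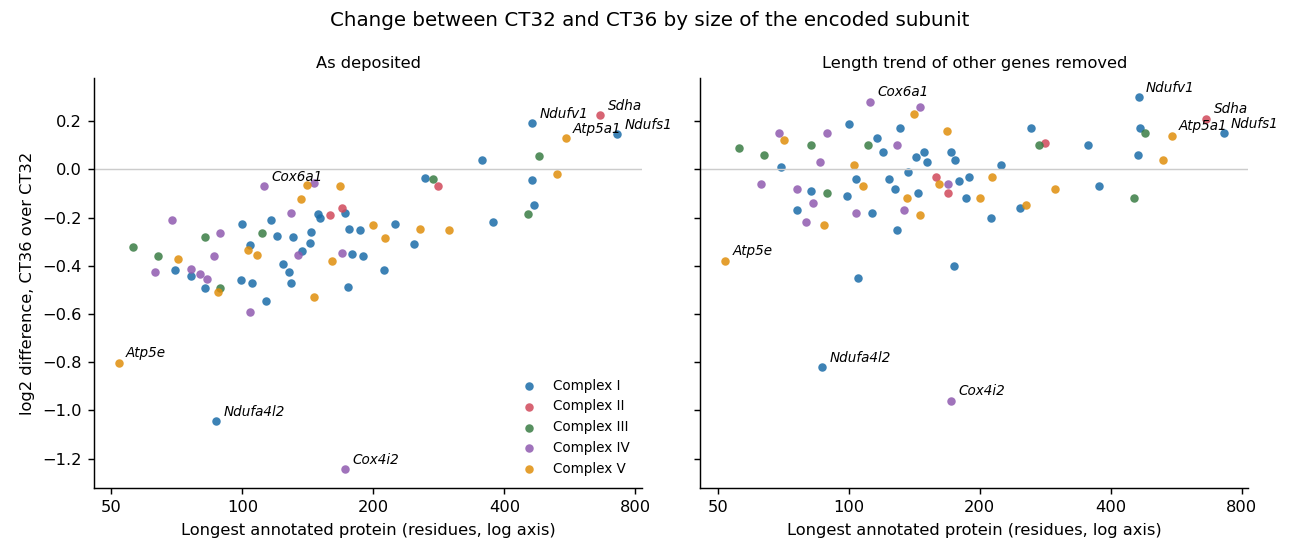
Difference (log2) at CT36 over CT32 of each of the 78 genes against the length of its longest annotated protein in residues (log axis), as deposited (left) and after the length trend of other genes was removed (right), coloured by complex. On the left 72 of 78 genes lie below 0 and on the right 41 do, with Cox4i2 and Ndufa4l2 lowest in both.

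Over the whole second part most subunits fell as well. Along the line from CT28 to CT48, 66 genes fell and 3 rose, against 30.7% falling and 28.7% rising among all genes, with a median slope of -0.511 log2 units per 24 h for the 78 genes and -0.017 for all. The 3 that rose were Atp5a1 by 0.25 ± 0.05, Sdha by 0.24 ± 0.08 and Ndufv1 by 0.24 ± 0.06 per 24 h (adjusted p = 0.000266, 0.00696 and 0.000482 by limma). The steepest falls were those of Ndufa4l2 at -1.56 ± 0.21, Cox4i2 at -1.46 ± 0.25, Atp5e at -1.20 ± 0.18, Cox6b2 at -1.02 ± 0.15 and Atp5j2 at -1.01 ± 0.12 per 24 h. All 14 genes of complex IV fell in the values as deposited. With the length trend removed, Cox4i2, Cox6b2 and Cox7b still fell, at -0.96, -0.33 and -0.40. Cox5a, Cox5b, Cox6a1 and Cox8a then rose, at 0.34, 0.16, 0.37 and 0.25, and the rest of complex IV did not pass. Atp5e had means of 6687, 6801, 3930, 4687, 3942 and 3404 from CT28 to CT48. Without CT28 and CT32, 0 of the 78 genes passed and their median slope was -0.28, while among all genes 559 rose and 515 fell. With the length trend removed 23 fell and 22 rose, and among all genes 3925 fell and 4127 rose. With the mean of each time point as the unit 56 fell and 0 rose, and among all genes 2860 fell and 2578 rose.

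Between CT36 and CT48 no subunit passed the test. By limma 0 of the 78 genes were called at CT48 against CT36, where 7.17% of all genes were lower and 6.74% higher. The median log2 difference was -0.12, or 7.98% less, against 0.003 over all genes. Of the 78 values 72 were below 0 and 24 had an unadjusted p under 0.05. Both counts are descriptions over genes that share the same libraries, and no share over all genes is set beside them. This comparison shares its CT36 libraries with the one above. The count rested on single libraries: it was 10 without CT48 replicate 4, 12 without CT36 replicate 2, 2 without CT36 replicate 3 and 1 without CT36 replicate 1. Uqcr11 had 3618 to 4299 at CT48 and 3927 to 5135 at CT36, and its difference of -0.19 ± 0.09 did not pass. Atp5g2 had 2076 to 2133 at CT48 and 1554 to 2161 at CT36, and its difference of 0.20 ± 0.07 did not pass either (adjusted p = 0.0628 by limma). With the length trend removed 2 of the 78 genes passed, both higher at CT48: Atp5g2 at 0.31 ± 0.06 and Ndufs7 at 0.21 ± 0.06 (adjusted p = 0.000917 and 0.0153 by limma). Among all genes 1080 were then lower and 827 higher, and the median was -0.034 over the 78 and 0.003 over all. Sdha had 17960 ± 1020 at CT48 and 18280 ± 538 at CT36 (SD, n = 4 each).

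The slopes of the 2 parts differed for 69 of the 78 genes, where 55.1% of all genes tested differed. In 68 of them the slope in CT28 to CT48 was the lower one, with a median difference of -0.524. With the length trend removed it was lower in 26 and higher in 13, with a median of -0.077. Among all genes it was then lower in 3646 and higher in 3736, with a median of 0.01. Atp5a1 was the only gene of the 69 with the higher slope in the second part, by 0.15 ± 0.06 (adjusted p = 0.0195 by limma). For Sdha the difference was 0.11 ± 0.07 and for Ndufv1 0.09 ± 0.06, and neither passed.

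The series was sampled for circadian rhythm, and 2 of these genes followed a 24 h cosine. In a fit with a line in each part, 2 of the 78 passed, against 8.36% of all genes. Ndufa4l2 had an amplitude of 0.20 ± 0.05 log2 units and a peak at 4.7 h (adjusted p = 0.0201 by limma), and Cox6b2 had 0.12 ± 0.04 and a peak at 2.2 h (adjusted p = 0.0271 by limma). When the mean of each time point was fitted, 0 of all genes tested passed, so that fit cannot single out these 2. No more than 1 of the 2 passed when any one replicate number was left out. The authors' deposited table of a combined rhythm test gave a q under 0.05 for 32 of the 78 genes and for 45.8% of all genes. The period in the authors' deposited table was over 26 h for 20 of those 32 and 28 h, the longest it gives, for 13. In the authors' deposited table Cox6b2 had the smallest q of the 78, 3.32e-07, with a period of 28 h.

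Genes around the complexes did not all move with them. At CT36, 14 of 37 tested assembly factors were lower than at CT32 and 1 was higher: Coa3 fell by 0.71 ± 0.11, Bcs1l, which inserts the Rieske protein, by 0.62 ± 0.13 and Cox14 by 0.61 ± 0.10, while Cox10, which makes heme for complex IV, rose by 0.41 ± 0.07. Of 6 subunits outside the symbol families 4 were lower, among them Usmg5, a small ATP synthase subunit, by 0.57 ± 0.14. Of 13 enzymes of the tricarboxylic acid cycle, which feeds the chain, 6 were higher and 0 were lower, led by Ogdh at 0.34 ± 0.08, Idh3a at 0.19 ± 0.06 and Cs, citrate synthase, at 0.16 ± 0.06. The median transcript was 2491 bases for the cycle enzymes and 746 for the 78 genes. With the length trend removed 9 of the 13 were higher and 0 were lower.

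Glycolytic enzymes fell in the same 4 h. Of 14, 10 were lower at CT36 and 1, Hk1, was higher, with log2 differences of -1.19 ± 0.11 for Ldha, -1.07 ± 0.12 for Pfkl and -0.87 ± 0.08 for Pgk1 (adjusted p = 7.05e-08, 1.96e-06 and 1.24e-08 by limma). Their summed value was 193401 to 198175 at CT36, against 270731 to 363607 at CT32. With the length trend removed the counts were still 10 lower and 1 higher. Of 12 regulators of mitochondrial biogenesis 4 were higher and 1 was lower: Esrrb by 0.96 ± 0.20, Ppara by 0.68 ± 0.13, Ppargc1a by 0.30 ± 0.12 and Esrrg by 0.25 ± 0.10 rose, and Tfam, which packages mitochondrial DNA, fell by 0.21 ± 0.06.

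At CT24 against CT0 the cycle enzymes rose as well, 6 of 13 and 0 lower, with Suclg2 at 0.18 ± 0.03 and Suclg1 at 0.16 ± 0.04 among them. Esrrb rose by 0.58 ± 0.09, Ppara by 0.47 ± 0.05 and Ppargc1b by 0.25 ± 0.06 at CT24, and Tfam fell by 0.14 ± 0.04 and Gabpa by 0.09 ± 0.03. Only 1 of 14 glycolytic enzymes, Pfkp, was called, at 0.24 ± 0.06.

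Cell type markers moved in the same intervals. At CT24, 9 of 10 proximal tubule markers were higher than at CT0, with a summed value of 165384 to 184783 at CT24 and 110254 to 129603 at CT0. The 6 tested markers of the thick ascending limb and distal tubule were all higher, while 5 of 6 nephron progenitor and 6 of 6 cell cycle genes were lower. At CT36, 3 of 10 proximal tubule markers were higher and 2 were lower than at CT32, with sums of 151960 to 176316 at CT36 and 140545 to 177972 at CT32. Of the thick ascending limb and distal tubule markers 4 of 6 tested were higher at CT36, Umod, Slc12a1, Slc12a3 and Trpm6, with sums over the list of 42104 to 48105 at CT36 and 34798 to 39937 at CT32. Of 6 collecting duct markers 3 were higher and 0 were lower, with sums of 24021 to 29139 at CT36 and 20952 to 23819 at CT32. Of 6 nephron progenitor genes Six2, Cited1 and Crym were lower, with sums of 7205 to 7398 at CT36 and 7777 to 9111 at CT32. Of the cell cycle genes 5 of 6 were lower, with sums of 28788 to 30938 at CT36 and 37840 to 43895 at CT32. Skeletal muscle markers had 0 of 9 called at CT36, with sums of 357 to 1321 at CT36 and 492 to 604 at CT32. Of 2 tested adipose markers, Fabp4 was lower at CT36, and the summed value of the adipose list was 5911 to 11125 at CT36, against 10652 to 12560 at CT32. The adipose marker Adipoq was at 0 in all CT0 libraries. No proximal tubule, muscle or cell cycle marker was at 0 in every library of a time point compared. What part these cell types have in the changes of the subunits was not tested.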

How the data were processed

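RNA of 51 fetal kidney libraries was sequenced from TruSeq libraries, per the labels' protocols. bcl2fastq, STAR 2.5.2b and featureCounts 1.5.0-p3 and the mouse build mm10 are named in the submitters' processing notes. The expression table was deposited under the name of counts, but its values were normalised by the authors and rounded. They were treated as a score with unknown depth, so no counting interval is given. The deposited rhythm table holds p-values, q-values and scores for period and phase of a combined test, per the file headers. The sources used here do not give its settings.

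Genes with a mean of 10 or more (14426 of 16099) were tested on log2(value + 1), a scale that understates the change of low genes, with limma 3.58.1 in R 4.3.3 (trend and robust moderation, Benjamini-Hochberg adjusted p under 0.05). Time points and slopes were fitted within each part alone. The slope difference and the rhythm were fitted over both parts with a separate line in each. Deviations of a list are medians over its genes of the log2 difference from the gene's mean within its part. Transcript lengths are the median of a gene's annotated coding transcripts in GENCODE M21.

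Within each comparison and complex the text names up to 4 called genes of complex I and 3 of the others with the largest effects, plus a fixed set of the Sdh, core Uqcr and isoform genes. Genes outside this are those of counts of 10 or fewer and the catalytic subunits, named after their values were seen. The members and all lists were chosen with earlier results of these data known. Genes were assigned to complexes by symbol.

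On simulated data with 100 of 14426 genes changed by 0.25 and 100 by 0.5 log2 units, the test recovered 73% and 95% at CT24 against CT0, 26% and 82% at CT36 against CT32, and 27% and 81% at CT48 against CT36. Alternatives covered the pseudocount (10), the filter (mean of 1), scaling, blocks, left-out libraries and a length trend (loess span 0.3).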

Additional observations from a re-analysis of the deposited data

Results flagged for a closer look

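Of 177 groups of 4 libraries tested, 10 held 1 library far from the other 3 (Dixon's test at the 95% level). Chance flags about 1 in 20 groups. The groups covered the median deviations of the complexes and of all subunits as well as the named genes. All 10 flagged libraries were in groups of named genes. The share flagged among the genes alone was therefore above 10 of 177, and it was not tested against chance. The high flagged values were Ndufv1 at CT0 with 5928, Ndufa4 at CT24 with 8678 and at CT48 with 7948, Cox6b2 at CT32 with 746, Atp5a1 at CT36 with 67153 and Atp5e at CT48 with 4088. The low ones were Cox4i2 at CT24 with 204, Cox6a1 at CT48 with 8448, Cox6b2 at CT0 with 518 and Atp5j2 at CT0 with 4724. Both CT48 highs of Ndufa4 and Atp5e came from replicate 4.

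The slope per 24 h in CT28 to CT48 differed from that in CT0 to CT24 for 69 of the 78 genes and for 55.1% of all genes tested (limma, adjusted p under 0.05). In complex I the difference, later minus earlier part, was -0.65 for Ndufa4, -1.64 for Ndufa4l2, -0.84 for Ndufa7, -0.98 for Ndufb2 and -0.85 for Ndufb4. In complex II it was -0.24 for Sdhb, -0.29 for Sdhc and -0.36 for Sdhd. In complex III it was -0.65 for Uqcr10, -0.77 for Uqcr11, -0.24 for Uqcrc2, -0.14 for Uqcrfs1 and -0.76 for Uqcrh. In complex IV it was -0.55 for Cox4i1, -1.53 for Cox4i2, -0.34 for Cox6a1, -0.53 for Cox6b1, -0.88 for Cox6b2, -1.0 for Cox7a1, -0.69 for Cox7a2, -0.43 for Cox7a2l, -0.78 for Cox7b and -0.41 for Cox8a. In complex V it was -1.20 for Atp5e, -0.25 for Atp5g1, -0.31 for Atp5g2, -1.03 for Atp5j2 and -0.70 for Atp5k.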

How the results depend on the processing

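Depth is unknown, the normalisation cannot be undone, and levels across the break between the parts cannot be set side by side. Counts of called genes that moved by over 1.5 times are given here against 9 (CT24 against CT0), 61 (CT36 against CT32), 0 (CT48 against CT36), 10 (first slope), 69 (second slope), 69 (slope difference) and 2 (rhythm). Quantile scaling gave 4 at CT24 against CT0, 2 for the first slope and 1 for the rhythm. All 51 libraries in 1 fit gave 2 at CT24 against CT0 and 18 at CT48 against CT36. Time-point means gave 0 for the first slope and 0 for the rhythm, where 0 of all genes passed as well, and a common line with a step gave 1 for the rhythm. At CT48 against CT36 there were 2 calls without the library of another ID prefix, which is CT36 replicate 3, so that this is the same fit as leaving out that replicate. The replicate block gave 9 at CT48 against CT36 and changed no other count by over 1.5 times. Whether the numbers pair the libraries cannot be told from these values. Same-numbered libraries had a mean correlation of 0.035 in the first part and 0.012 in the second, and 11 of 27 and 8 of 24 libraries correlated best with their own number. In the first part 25 of 78 same-numbered pairs were over 0.1, the highest at 0.38, and in the second 4 of 60, the highest at 0.153. At some time points the replicate number is out of step with the ID series.

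Leaving out 1 library or replicate number gave 4 to 11 at CT24 against CT0, 49 to 63 at CT36 against CT32, 0 to 12 at CT48 against CT36, 2 to 8 and 65 to 69 for the slopes, 65 to 66 for their difference and 0 to 1 for the rhythm. Other alternatives were chosen after seeing the data. The library median gave 1 at CT48 against CT36. The second slope without CT28 and CT32 gave 0. Removing the length trend gave 19, 27 and 2 for the time-point comparisons, 21 and 45 for the slopes and 39 for their difference.

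Of the values of single genes under the alternatives, 2495 kept direction and call, 184 lost the call, 38 gained it and 57 changed sign. With the length trend removed, the values that changed sign at CT36 against CT32 were 0.06 for Uqcr10, 0.09 for Uqcr11, 0.11 for Sdhb, 0.10 for Uqcrfs1, 0.28 for Cox6a1, 0.03 for Cox6b1, 0.15 for Cox7a1, 0.15 for Cox8a and 0.23 for Atp5g3. At CT48 against CT36 they were 0.01 for Uqcrfs1, Cox6a1 and Ndufa4, 0.03 for Cox4i2 and Cox6b1, 0.06 for Cox6b2 and 0.04 for Cox8a. For the first slope they were 0.02 for Cox6b1 and Cox7b and 0 for Cox7a2l. For the second slope they were 0.14 for Uqcr10 and Sdhb, 0.05 for Atp5k, 0.20 for Uqcrfs1, 0.02 for Cox4i1, 0.37 for Cox6a1, 0.11 for Cox6b1, 0.25 for Cox8a and 0.22 for Atp5g2. For the slope difference they were 0.06 for Sdhb, 0 for Uqcr10, 0.04 for Atp5k, 0.10 for Uqcrfs1, 0.22 for Cox6a1, 0.08 for Cox6b1, 0.16 for Cox8a, 0.24 for Atp5g2 and 0.43 for Atp5g3. Quantile scaling turned Cox6b1 to 0 at CT24 against CT0, Atp5g3 to 0.03 at CT36 against CT32, Sdha to 0.01 at CT48 against CT36 and Atp5g3 to 0.15 for the slope difference. The library median turned Uqcrfs1 to 0 at CT36 against CT32, and without CT28 and CT32 the second slope of Atp5g2 was 0.32.

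With 1 library left out, signs changed at CT24 against CT0 for Cox7a2 (-0.01 to 0.05) and Cox7b (-0.02 to 0.04), and at CT48 against CT36 for Sdha (-0.05 to 0.01), Cox6b2 (-0.18 to 0.04) and Atp5g3 (-0.01 to 0.02). They changed for the first slope of Cox7a2 (-0.02 to 0.05), Cox7a2l (-0.02 to 0.01), Cox7b (-0.03 to 0.02) and Atp5g1 (-0.01 to 0.07), the second slope of Atp5g3 (-0.02 to 0.03) and the slope difference of Uqcrc1 (-0.01 to 0.08). The cause of these changes was not tested.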
